A study of Homo sapiens with 6 samples.

Results

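The interferon system of DMS114 cells was examined after exposure to β-alanine, through 57 genes that encode receptors, kinases, transcription factors, nucleic acid sensors and antiviral effectors. DMS114 is a widely used cell line from a human small cell lung cancer. The 3 treated libraries came from cells given 2.5 mM β-alanine for 48 h, and the 3 control libraries from cells given vehicle in the same volume. β-alanine is a non-proteinogenic amino acid, and the study asks how STMN2 and β-alanine, through metabolism, bear on the invasion of nerves by this cancer. The members were chosen by gene symbol, with earlier results of these data known. All 57 had a row in the table of 36458 symbols, 56 under their own symbol and RIGI under its older symbol DDX58, and 47 held enough reads to be tested.

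Interferons are secreted proteins that warn cells of infection. Type I interferons bind the IFNAR1 and IFNAR2 receptor chains and interferon gamma binds IFNGR1 and IFNGR2, and the kinases JAK1 and TYK2 (for type I) then activate STAT factors. STAT2 and IRF9 act in a complex on a DNA motif named the interferon-stimulated response element. Sensors such as RIGI and IFIH1 detect viral RNA and CGAS detects cytosolic DNA, and their signals reach IRF3 and IRF7, which switch on interferon genes. Many sensors and factors are themselves interferon-stimulated, so the system can amplify its own parts.

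In β-alanine libraries, several sensors and interferon regulatory factors were higher than in controls, and 6 of 30 antiviral effectors tested were called higher. IFIH1, RIGI and CGAS rose by log2 values of 1.01 ± 0.18, 0.68 ± 0.14 and 0.46 ± 0.08 (SE, 3 libraries per group), and IRF7, IRF1 and IRF2 by 0.81 ± 0.16, 0.56 ± 0.14 and 0.39 ± 0.07. The effectors ISG15, IFIT5 and PARP9 also rose, while MX2, OAS3, EIF2AK2 and ADAR did not pass the test. IFNGR2, a chain of the interferon gamma receptor, was the member that fell, by 0.31 ± 0.07. The threshold for a call was a Benjamini-Hochberg adjusted p of 0.05 over 17331 genes, from the quasi-likelihood test of edgeR.

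Of the 47 members tested, 16 were called higher and 1 lower, which is 34% and 2.13%. Over all genes tested, 14.1% were called higher and 13.8% lower, and 27.9% in either direction. The median log2 fold change was 0.15 over the members tested and 0.00 over all genes tested. All 3 β-alanine libraries lay above all 3 controls for 16 members and below them for 3, which is 34% and 6.38%, against 19.9% and 19.2% of all genes tested. By role, 10 of 17 receptors, factors and sensors tested (58.8%) were called higher and 1 lower, with a median of 0.20. Of 30 effectors tested, 6 (20%) were called higher and none lower, with a median of 0.15. In either direction the shares were 64.7% and 20%, against 27.9% of all genes tested. The difference between these roles was not tested. Because the list was chosen with earlier results of these data known, its shares, here and by role below, are descriptions. They are no independent test of an excess over all genes.

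**Figure D1:**
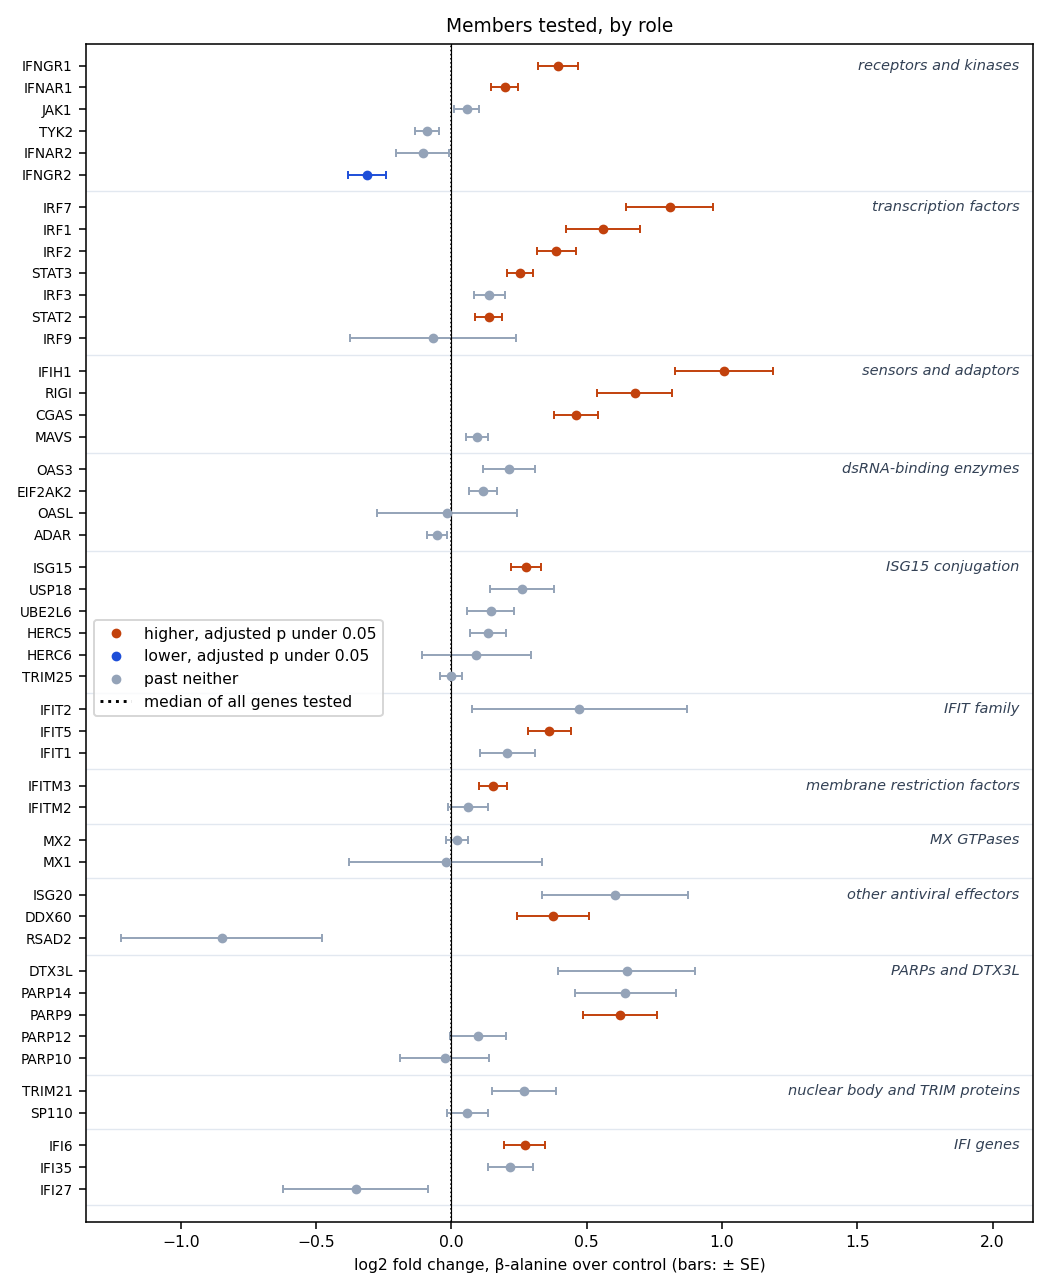
Log2 fold change of β-alanine over control for the 47 members tested, grouped by role; points are fitted values from 3 libraries per group and bars are ± SE. IFIH1 lies farthest to the right at 1.01, IFNGR2 is the member called lower at -0.31, and the dotted line marks the median of all genes tested.

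Total counts ran from 14433801 to 32909568 in the β-alanine libraries and from 18814876 to 22072654 in the controls. β-alanine library 1, the shallowest, stood apart from libraries 2 and 3 on the first principal component of log2 CPM (-5.96 against -18.2 and -18.3), with the controls between 12.4 and 15.2. The members' values differed in the same way between these libraries, and the part of depth in this was not tested. Their median relative to the control mean was 0.04, 0.19 and 0.18 on the log2(CPM + 1) scale in β-alanine libraries 1, 2 and 3, and it lay between -0.02 and 0.01 in the controls. Without β-alanine library 1, 26 members were called higher and 2 lower, while 36.2% of all genes were called. Members that gained a call in that fit included MAVS, IRF3, HERC5, ISG20, TRIM21 and IFI35 (higher) and TYK2 (lower). Without β-alanine library 2, 11 members were called higher and 2 lower, with 17% of all genes called. The labels do not say whether libraries came from separate cultures, so a p-value reflects no more than the variation among these 6 libraries, which may be technical. In bulk RNA fewer expressing cells and less RNA per cell cannot be told apart.

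**Figure D2:**
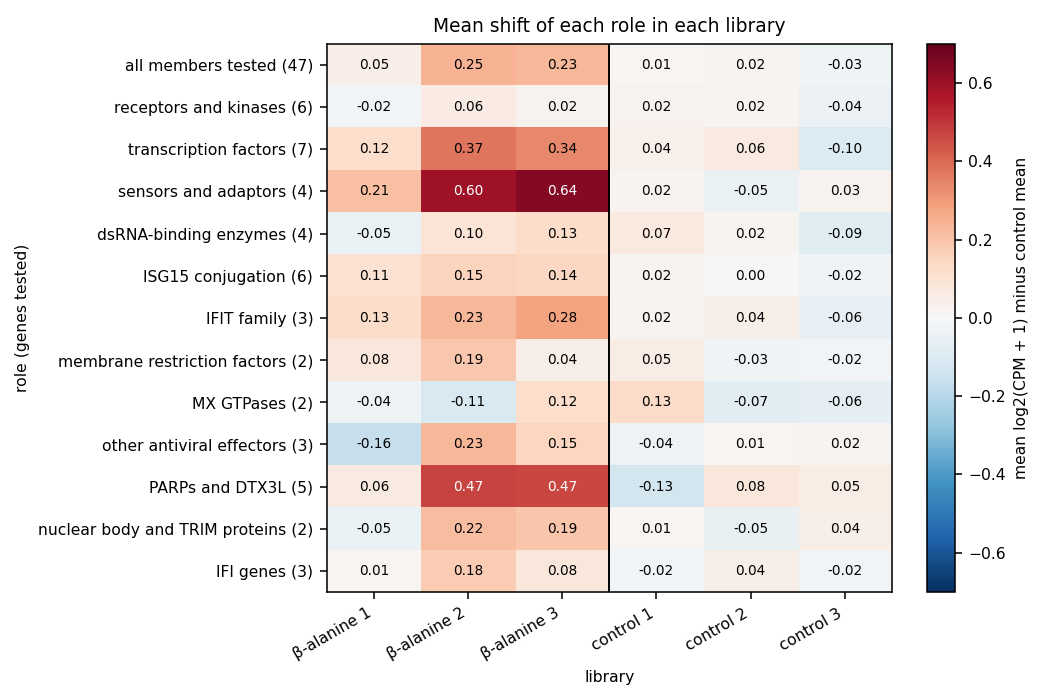
Mean of log2(CPM + 1) minus the control mean for the tested members of each role, in each of the 6 libraries; red is above and blue below the control mean, and numbers in brackets count genes. Sensors and adaptors reach 0.60 and 0.64 in β-alanine libraries 2 and 3 and 0.21 in library 1, and receptors and kinases stay between -0.02 and 0.06 in the β-alanine libraries.

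Cell identity markers were read in the same libraries. SYP and CHGA, vesicle proteins of neuroendocrine cells, stood at 86.3 ± 4.26 and 28.8 ± 2.41 CPM in β-alanine libraries and 61.0 ± 4.23 and 19.6 ± 2.06 CPM in controls (SD, n = 3 each), and both rose. The epithelial keratin KRT18 rose as well, while the epithelial marker EPCAM gave a log2 of 0.17 ± 0.26 (SE) and was not called. KRT8, another epithelial keratin, was at 0.234 CPM after β-alanine and 0.180 CPM in controls, too low to test. NCAM1, a neural adhesion molecule that also marks this cancer, fell by a log2 of 0.67 ± 0.20 (SE; edgeR, adjusted p = 0.0156), with every treated library below every control. The neuroendocrine factor NEUROD1 gave -0.24 ± 0.20 and was not called, and INSM1 was below 0.5 CPM on average in both groups. Over the 11 markers of small cell lung cancer and epithelium, 3 were called higher and 1 lower. The summed level of 5 leukocyte markers was 0.255 to 0.629 CPM after β-alanine and 0.561 to 0.637 CPM in controls. Of 5 fibroblast and endothelial markers, 3 (COL3A1, COL1A1 and DCN) fell, and their sum was 828 to 925 CPM after β-alanine and 1057 to 1099 CPM in controls, most of it COL3A1. PECAM1 and CDH5, which define endothelium, were at or near 0. The part of these collagen and decorin transcripts in the interferon results was not tested.

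Matches to the core letters of the response element were searched in the promoters, and binding was not measured. RefSeq promoters on GRCh38.p14, 250 bases before to 50 after an annotated start, were at hand for 44 of the 57 members. The motif was GAAA, any 2 bases and GAAA again, on either strand. At least 1 window held it for 25 of 44 members, or 56.8%, against 4.38% of 27305 genes with a window. The list was built around interferon-stimulated genes, so this share describes the list and not the β-alanine libraries. Matches can overlap each other, as in ISG15 and IFIH1, and a match is a description of the letters only. The stretches below run from 170 bases before the start to 30 after, with matches in capitals. They show 4 members called higher (IFIH1, IFIT5, ISG15 and IFI6) and the chromosome 3 genes DTX3L and PARP14. IFIT1 and RSAD2, which also hold matches and were not called, come last.
IFIH1, chr2:162318655-162318854, minus strand: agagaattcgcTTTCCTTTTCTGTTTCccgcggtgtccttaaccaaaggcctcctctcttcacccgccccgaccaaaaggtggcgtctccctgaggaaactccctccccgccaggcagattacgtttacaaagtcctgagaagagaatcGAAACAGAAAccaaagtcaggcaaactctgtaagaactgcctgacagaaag
DTX3L, chr3:122564168-122564367, plus strand: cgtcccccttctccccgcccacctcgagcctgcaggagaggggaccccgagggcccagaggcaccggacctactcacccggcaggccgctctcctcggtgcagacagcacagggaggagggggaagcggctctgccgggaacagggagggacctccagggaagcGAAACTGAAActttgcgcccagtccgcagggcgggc
PARP14, chr3:122680669-122680868, plus strand: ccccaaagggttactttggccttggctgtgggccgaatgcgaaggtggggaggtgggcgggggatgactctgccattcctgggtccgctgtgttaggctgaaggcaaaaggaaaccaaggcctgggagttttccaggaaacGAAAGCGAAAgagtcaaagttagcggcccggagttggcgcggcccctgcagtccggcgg
IFIT5, chr10:89414398-89414597, plus strand: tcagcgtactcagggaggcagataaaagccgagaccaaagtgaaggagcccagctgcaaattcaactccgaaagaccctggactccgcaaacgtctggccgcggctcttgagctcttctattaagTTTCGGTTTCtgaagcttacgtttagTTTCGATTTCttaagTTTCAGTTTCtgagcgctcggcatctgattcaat
ISG15, chr1:1013327-1013526, plus strand: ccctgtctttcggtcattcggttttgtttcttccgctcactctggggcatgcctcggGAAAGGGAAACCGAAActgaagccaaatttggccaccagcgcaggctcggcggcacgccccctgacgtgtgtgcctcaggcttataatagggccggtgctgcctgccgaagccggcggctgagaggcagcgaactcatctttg
IFI6, chr1:27672163-27672362, minus strand: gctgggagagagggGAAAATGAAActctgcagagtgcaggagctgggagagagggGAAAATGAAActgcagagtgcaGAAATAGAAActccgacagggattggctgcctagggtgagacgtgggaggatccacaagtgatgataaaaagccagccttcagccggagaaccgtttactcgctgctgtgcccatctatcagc
IFIT1, chr10:89392453-89392652, plus strand: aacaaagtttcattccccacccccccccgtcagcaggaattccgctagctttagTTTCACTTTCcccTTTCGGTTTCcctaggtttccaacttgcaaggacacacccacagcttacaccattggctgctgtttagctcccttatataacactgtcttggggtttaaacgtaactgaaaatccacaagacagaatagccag
RSAD2, chr2:6877607-6877806, plus strand: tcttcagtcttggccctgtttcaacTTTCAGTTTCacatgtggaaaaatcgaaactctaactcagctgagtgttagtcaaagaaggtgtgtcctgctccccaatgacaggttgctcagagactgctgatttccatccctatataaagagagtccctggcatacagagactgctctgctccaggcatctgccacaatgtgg

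IFIH1, with the largest rise, had 3 matches. An overlapping pair ended 144 bases before the start on the strand opposite to the gene, and another ended 12 bases before the start. IFIT5 had 3 in its last 45 bases before the start and first 5 after it. The single match of DTX3L, at chr3:122564332-122564341, is the same stretch that lies 32 to 41 bases before an annotated start of PARP9, which is transcribed the other way. PARP14, farther along the chromosome, had 1 match 20 to 29 bases before its start, beside a gamma-activated site (TTCNNNGAA) at 32 to 40 bases. That second motif stood in windows of 11 of 44 members (25%) and of 9.38% of all genes with a window, and overlapped the response element in IFITM1, IFI27, BST2 and MX1.

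Matches stood in members with and without a call. Of 13 members called higher that had a window, 7 held a match, and so did 12 of 22 that were tested and not called, and 6 of 8 that were too low to test. IFNGR2, the member called lower, held none. The median log2 fold change was 0.27 over 19 tested members with a match and 0.10 over 17 with a window and no match, a difference that was not tested.

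**Figure D3:**
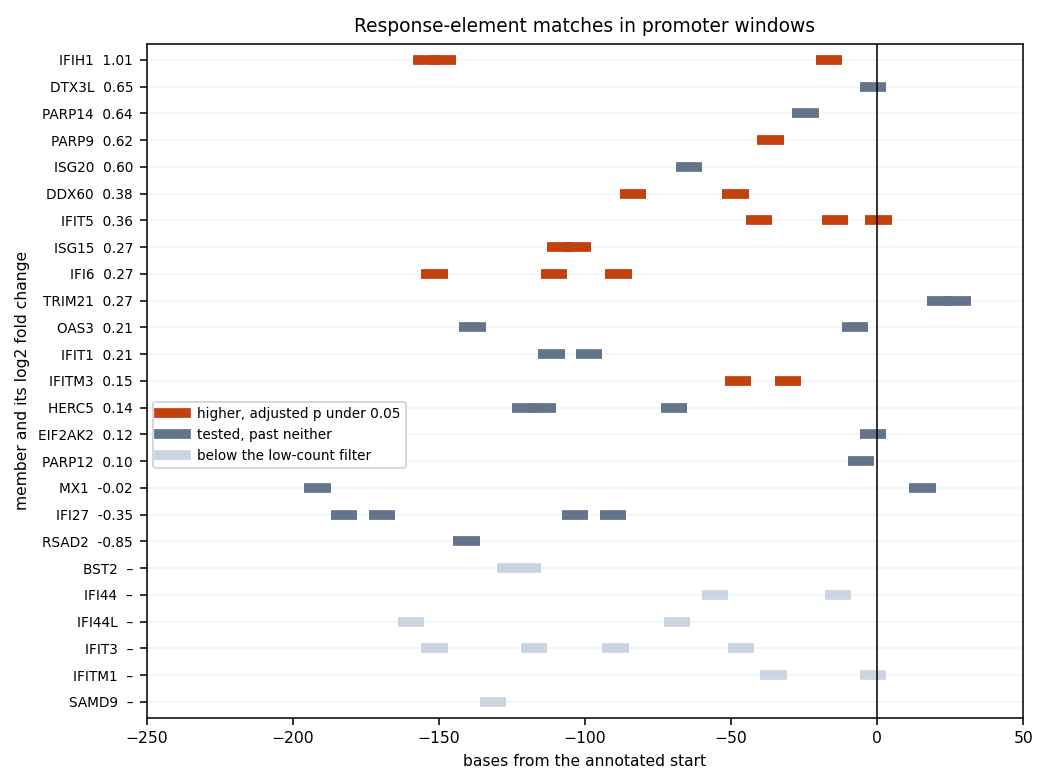
Position of each response element match relative to the annotated start (bases, 0 at the start) for the 25 members that hold one, ordered by log2 fold change, which stands beside each name. Members called higher, such as IFIH1 and IFIT5, and members below the low-count filter, such as IFIT3 and SAMD9, both carry matches; members with several annotated starts show a site once per start.

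Receptor chains moved in different directions. IFNGR1, the ligand-binding chain for interferon gamma, had 24.4, 25.8 and 24.1 CPM in β-alanine libraries, against 20.4, 18.2 and 18.1 CPM in controls. IFNGR2, the chain that brings in the kinase JAK2, had 24.6, 27.9 and 26.9 CPM after β-alanine, against 35.5, 33.5 and 30.4 CPM in controls. The groups did not overlap for either gene, and the chains moved apart. IFNGR1 rose by a log2 of 0.39 ± 0.07 (SE; edgeR, adjusted p = 0.000405) and IFNGR2 fell by 0.31 ± 0.07 (edgeR, adjusted p = 0.00195). Both calls held when each library in turn was left out. The ratio of IFNGR2 to IFNGR1 counts in a library was 1.01, 1.08 and 1.12 after β-alanine and 1.74, 1.84 and 1.68 in controls. IFNGR2 lies at chr21:33402882-33437516 on GRCh38. Exons of TMEM50B on the other strand cover 12.8% of its exon length, and whether reads were counted by strand is not known.

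IFNAR1, a chain of the type I receptor, had 78.1, 89.2 and 83.3 CPM in β-alanine libraries and 74.7, 73.7 and 71.3 CPM in controls, so the lowest treated library lay just above the highest control. Its log2 rise was 0.20 ± 0.05 (edgeR, adjusted p = 0.00573), and the call was lost without β-alanine library 2 (edgeR, adjusted p = 0.0736). The partner chain IFNAR2 had a log2 fold change of -0.11 ± 0.10 and was not called, and exons of AP000295.1 overlap 44.2% of its exon length. JAK1 and TYK2, the kinases bound to the type I receptor, gave 0.06 ± 0.05 and -0.09 ± 0.04 and were not called.

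Among transcription factors, 5 of 7 were called higher, or 71.4%, against 14.1% of all genes tested. IRF7, which amplifies interferon production, had 4.60, 6.57 and 5.48 CPM in β-alanine libraries, against 3.89, 3.23 and 2.60 CPM in controls. IRF2, a factor that binds the same element as IRF1 and often opposes it, had 25.8, 29.8 and 29.9 CPM after β-alanine, against 22.1, 21.9 and 22.0 CPM in controls. STAT3, which carries signals from interleukin 6 and other cytokines, had 101.6, 116 and 109.8 CPM after β-alanine, against 93.0, 93.8 and 89.2 CPM in controls. For all 3 the groups were apart, and the lowest treated value was in library 1. Their calls (edgeR, adjusted p = 0.000763 for IRF7, 0.000321 for IRF2 and 0.000516 for STAT3) held without any 1 library, and STAT3 rose by 0.25 ± 0.05.

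IRF1, a factor first known for binding the interferon beta promoter, also rose (edgeR, adjusted p = 0.0102). β-alanine library 1 overlapped the controls, and libraries 2 and 3 stood above them. Exons of C5orf56 and AC116366.3 on the other strand cover 28% of its exon length. STAT2 was called at the edge of the threshold, with a log2 of 0.14 ± 0.05 (edgeR, adjusted p = 0.0495), and lost the call in 10 of 15 alternative settings. IRF3, a constitutive factor that the sensors activate by phosphorylation, gave 0.14 ± 0.06 and was not called. IRF9 was near 1 CPM in both groups, with -0.07 ± 0.31, and exons of AL136295.5 overlap 48.4% of its exon length.

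The sensors IFIH1, RIGI and CGAS were called higher. IFIH1, which detects long double-stranded RNA and is also known as MDA5, had 11.7, 17.9 and 20.5 CPM in β-alanine libraries, against 8.54, 8.73 and 8.46 CPM in controls. RIGI, which detects RNA with a 5′ triphosphate, had 13.2, 20.3 and 18.8 CPM after β-alanine, against 11.9, 9.82 and 11.9 CPM in controls. CGAS, which makes the messenger cGAMP when it binds DNA, had 29.4, 36.6 and 39.3 CPM after β-alanine, against 26.5, 25.6 and 25.6 CPM in controls. Groups were separate for each sensor, library 1 was the lowest treated library each time, and the controls of IFIH1 and CGAS lay close together. Adjusted p-values in edgeR's quasi-likelihood test were 0.00366 for IFIH1, 0.0033 for RIGI and 0.000422 for CGAS, and all 3 calls held without any 1 library.

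The adaptors downstream of these sensors were not called. MAVS, the mitochondrial adaptor of RIGI and IFIH1, was at 171 ± 5.10 CPM after β-alanine and 161 ± 5.22 CPM in controls (SD, n = 3 each), with a log2 fold change of 0.10 ± 0.04 (SE; edgeR, adjusted p = 0.0904). Without β-alanine library 1 MAVS was called higher (edgeR, adjusted p = 0.0147), in a fit that called 36.2% of all genes. STING1, the receptor for the messenger made by CGAS, was at the detection limit. It had 2, 0 and 0 counts in β-alanine libraries, against 0, 0 and 0 in controls, and a pooled count of 0 allows up to 0.0496 CPM in controls. This limit covers counting error only.

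**Figure D4:**
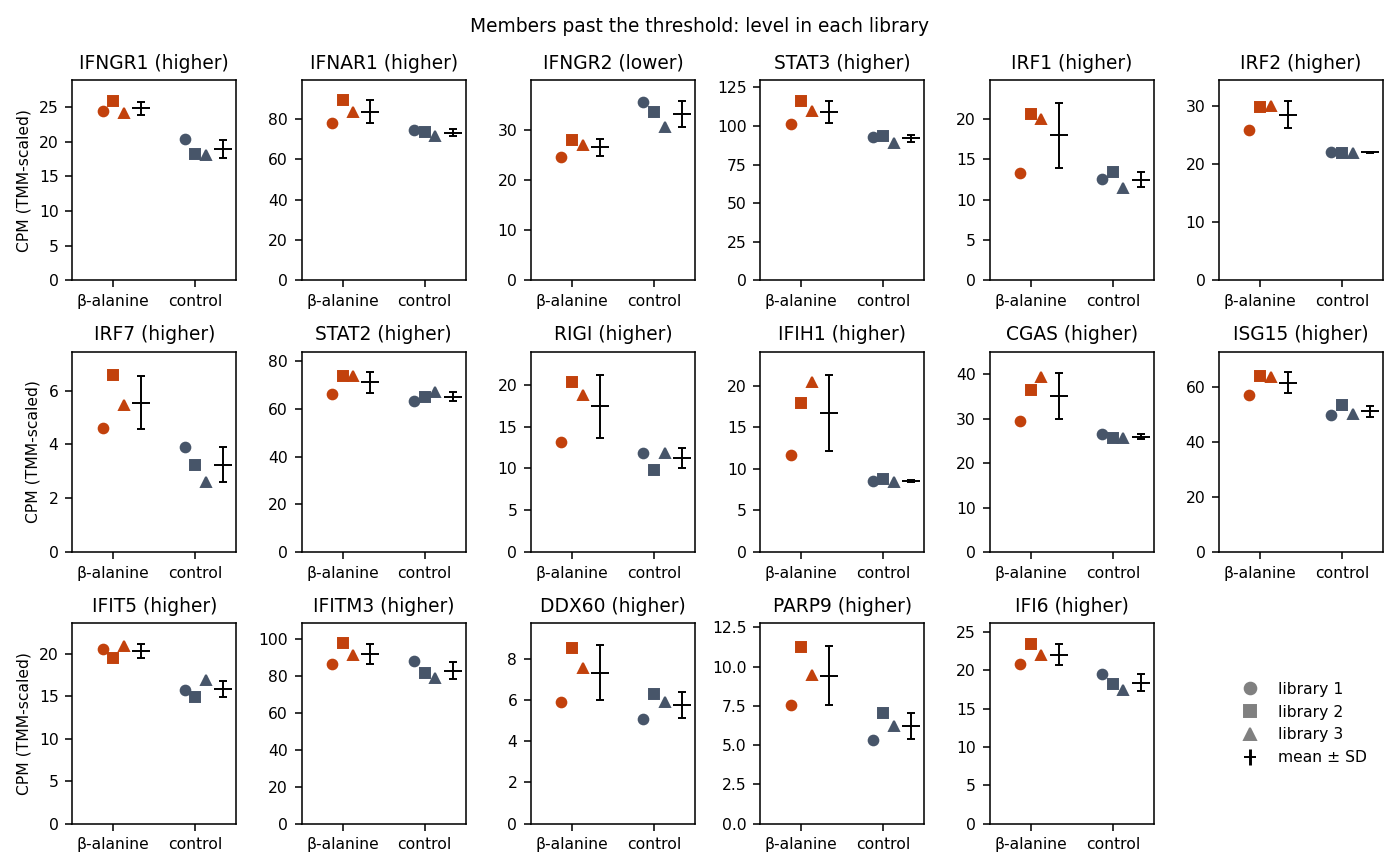
CPM of the 17 members past the threshold in each library, β-alanine at left and control at right of each panel, with the mean ± SD of 3 libraries in black. β-alanine library 1 (circles) lies below libraries 2 and 3 for IFIH1, RIGI, CGAS, IRF1 and IRF7, and the groups of IFNGR1 and IFNGR2 separate in opposite directions.

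Enzymes that bind double-stranded RNA gave no call among the 4 tested. EIF2AK2, the kinase PKR that halts translation, had 203, 235 and 236 CPM in β-alanine libraries, against 199, 205 and 218 CPM in controls. OAS3, which makes oligoadenylates that trigger RNA decay, had 22.7, 30.3 and 31.1 CPM after β-alanine, against 24.3, 26.1 and 23.4 CPM in controls. ADAR, which edits adenosine in double-stranded RNA, had 625, 663 and 659 CPM after β-alanine, against 675, 694 and 655 CPM in controls. The groups overlapped for all 3, through library 1 in EIF2AK2 and OAS3. Log2 fold changes were 0.12 ± 0.05, 0.21 ± 0.10 and -0.05 ± 0.04. Without β-alanine library 1 EIF2AK2 and OAS3 were called higher (edgeR, adjusted p = 0.000151 and 0.000168), in a fit that called 36.2% of all genes. Neither was called when any other single library was left out. Both were called with no low-count filter, and EIF2AK2 with a replicate block. OASL gave -0.02 ± 0.26, and OAS1 and OAS2 had at most 5 counts in any library.

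Within the ISG15 pathway the modifier itself rose. ISG15, a ubiquitin-like protein, had 57.2, 64.0 and 63.5 CPM in β-alanine libraries, against 49.9, 53.5 and 50.1 CPM in controls, with no overlap (edgeR, adjusted p = 0.000726). HERC5, the ligase that attaches it, had 27.0, 30.7 and 28.7 CPM after β-alanine, against 26.1, 26.8 and 26.3 CPM in controls. USP18, which removes it and restrains the type I receptor, had 7.03, 6.71 and 7.55 CPM after β-alanine, against 5.78, 5.64 and 6.43 CPM in controls. HERC5, USP18 and the conjugating enzyme UBE2L6 were each separated without reaching the threshold, with log2 values of 0.14 ± 0.07, 0.26 ± 0.12 and 0.14 ± 0.09. Of 50-base windows in USP18 transcripts, 23.4% also stand in other genes, mainly its copy USP41, so its count is uncertain. HERC6 gave 0.09 ± 0.20 and TRIM25, a ligase that can activate RIGI, 0.00 ± 0.04.

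IFIT proteins bind viral RNA that lacks the host cap marks. IFIT5 had 20.6, 19.5 and 21.0 CPM in β-alanine libraries, against 15.7, 15.0 and 16.9 CPM in controls, and rose by a log2 of 0.36 ± 0.08 (edgeR, adjusted p = 0.0015). IFIT1 had 9.61, 10.3 and 11.2 CPM after β-alanine, against 9.62, 9.37 and 8.31 CPM in controls. IFIT2 had 0.348, 0.656 and 0.569 CPM after β-alanine, against 0.379, 0.546 and 0.255 CPM in controls. IFIT5 was thus the family member whose groups did not overlap, and its β-alanine library 1 lay between libraries 2 and 3. IFIT3 had 3, 13 and 5 counts after β-alanine and 1, 3 and 8 in controls, and was not tested. These genes form a cluster on chromosome 10.

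Membrane restriction factors changed little. IFITM3, which hinders virus entry, had 86.5, 97.7 and 91.6 CPM in β-alanine libraries, against 88.3, 81.8 and 78.9 CPM in controls, so the groups overlapped. It was called higher (0.15 ± 0.05; edgeR, adjusted p = 0.0311), and the call ended in the fits without β-alanine libraries 2 and 3 and without control libraries 2 and 3, each left out alone (edgeR, adjusted p = 0.0713 to 0.217). IFITM2 had 24.8, 25.7 and 22.0 CPM after β-alanine, against 23.4, 22.4 and 23.6 CPM in controls. Transcripts of these neighbours are alike, with 34.1% of 50-base windows of IFITM2 and 17.4% of those of IFITM3 found in other genes, so reads may be split or lost between them. IFITM1 and BST2 were too low to test.

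MX2 and MX1 encode dynamin-like GTPases that trap viral nucleoprotein or capsid. MX2 had 146, 149.7 and 155 CPM in β-alanine libraries, against 153, 146 and 147 CPM in controls, and its log2 fold change was 0.02 ± 0.04. MX1 had 0.627, 0.438 and 0.899 CPM after β-alanine, against 0.973, 0.546 and 0.561 CPM in controls. The groups overlapped for both, and neither was called.

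RSAD2, known as viperin, had 0.348, 0.693 and 0.270 CPM in β-alanine libraries, against 0.757, 0.910 and 0.714 CPM in controls. Every treated library was below every control, but counts were 5 to 20 per library and the change of -0.85 ± 0.37 missed the threshold (edgeR, adjusted p = 0.0927). Without β-alanine library 2, in which it was highest among the treated, it was called lower, with -1.42 (edgeR, adjusted p = 0.0279). ISG20, an RNA exonuclease, had 0.975, 1.60 and 2.25 CPM after β-alanine, against 1.24, 0.910 and 1.27 CPM in controls, with library 1 among the controls. DDX60, a helicase, had 5.92, 8.53 and 7.55 CPM after β-alanine, against 5.08, 6.28 and 5.92 CPM in controls. Its call (0.38 ± 0.13; edgeR, adjusted p = 0.0384) was lost in 5 of the 6 fits that left out a library, held only without β-alanine library 1, and the groups overlapped.

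PARP9, DTX3L and PARP14 lie near each other on chromosome 3, with PARP15 between DTX3L and PARP14. PARP9 and the ubiquitin ligase DTX3L form a complex, and PARP14 is an ADP-ribosyltransferase. PARP9 had 7.52, 11.3 and 9.44 CPM in β-alanine libraries, against 5.35, 7.05 and 6.22 CPM in controls. DTX3L had 9.54, 18.0 and 17.2 CPM after β-alanine, against 9.46, 11.4 and 8.72 CPM in controls. PARP14 had 28.9, 43.8 and 46.4 CPM after β-alanine, against 26.4, 25.3 and 26.4 CPM in controls. Treated libraries 2 and 3 were high for all 3 genes, while library 1 lay within the DTX3L controls and just above those of PARP9 and PARP14.

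The log2 fold changes of these 3 genes were close, at 0.62 ± 0.14 for PARP9, 0.65 ± 0.25 for DTX3L and 0.64 ± 0.18 for PARP14. PARP9 was called (edgeR, adjusted p = 0.00183). PARP14 and DTX3L missed the threshold (edgeR, adjusted p = 0.0588 and 0.124). Both were called without robust shrinkage (edgeR, adjusted p = 0.000469 and 0.00612), in limma-voom (adjusted p = 0.000628 and 0.0085) and without β-alanine library 1 (edgeR, adjusted p = 9.83e-15 and 1.35e-09). They were also called with no low-count filter and with a replicate block. PARP14 alone was called with a CPM of at least 1 in 3 libraries and in the DESeq2 Wald test. Neither was called with DESeq2 size factors, with library totals, after thinning or when any other single library was left out. PARP9 and DTX3L overlap over 217 exonic bases on opposite strands. PARP12 gave 0.10 ± 0.10 and PARP10 -0.03 ± 0.16, and neither was called.

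TRIM21, an antibody receptor in the cytosol, had 6.96, 9.99 and 8.99 CPM in β-alanine libraries, against 7.19, 7.10 and 7.75 CPM in controls. SP110, a nuclear body protein, had 18.6, 19.4 and 20.8 CPM after β-alanine, against 19.7, 18.2 and 19.1 CPM in controls. Neither was called, and TRIM21 overlapped the controls through library 1.

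IFI6, a mitochondrial and endoplasmic reticulum protein that limits cell death and virus replication, had 20.8, 23.5 and 22.0 CPM in β-alanine libraries, against 19.6, 18.3 and 17.4 CPM in controls. Its groups did not overlap, and it rose by 0.27 ± 0.08 (edgeR, adjusted p = 0.0109), a call lost in turn without β-alanine library 2, control library 2 and control library 3 (edgeR, adjusted p = 0.0535 to 0.0858). IFI35 had 20.2, 24.9 and 25.7 CPM after β-alanine, against 19.4, 21.4 and 20.8 CPM in controls. IFI27 had 0.975, 1.02 and 0.719 CPM after β-alanine, against 1.03, 1.23 and 1.12 CPM in controls. IFI35 overlapped and missed the threshold (0.22 ± 0.08; edgeR, adjusted p = 0.0527), and IFI27 was lower in every treated library but not called (-0.35 ± 0.27). IFI35 was called higher with library totals, with no low-count filter, with a replicate block and without β-alanine library 1.

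The 10 members that did not pass the low-count filter were STING1, OAS1, OAS2, IFIT3, IFITM1, BST2, SAMD9, SP100, IFI44 and IFI44L. IFITM1 had the most, 26 counts over the β-alanine libraries and 15 over the controls, and IFI44L had 0 and 3. These genes were left out of the test, so no statement on a difference between the groups is made for them.

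Levels between genes were compared as mean CPM per kilobase of merged exons in GENCODE release 29. IFITM3, ADAR and ISG15 were the highest members at 68.2, 67.0 and 65.4 in β-alanine libraries and 61.6, 69.6 and 54.4 in controls, close enough that their order differs between the groups. IFI6 followed at 25.5 in β-alanine libraries and 21.3 in controls. IFIH1 was at 3.27 and 1.68, RIGI at 4.00 and 2.57, IRF7 at 2.11 and 1.23 and PARP9 at 1.05 and 0.694, in β-alanine libraries and controls. RSAD2, IFIT2 and MX1 were at 0.09, 0.13 and 0.08 after β-alanine and 0.16, 0.10 and 0.08 in controls.

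**Figure D5:**
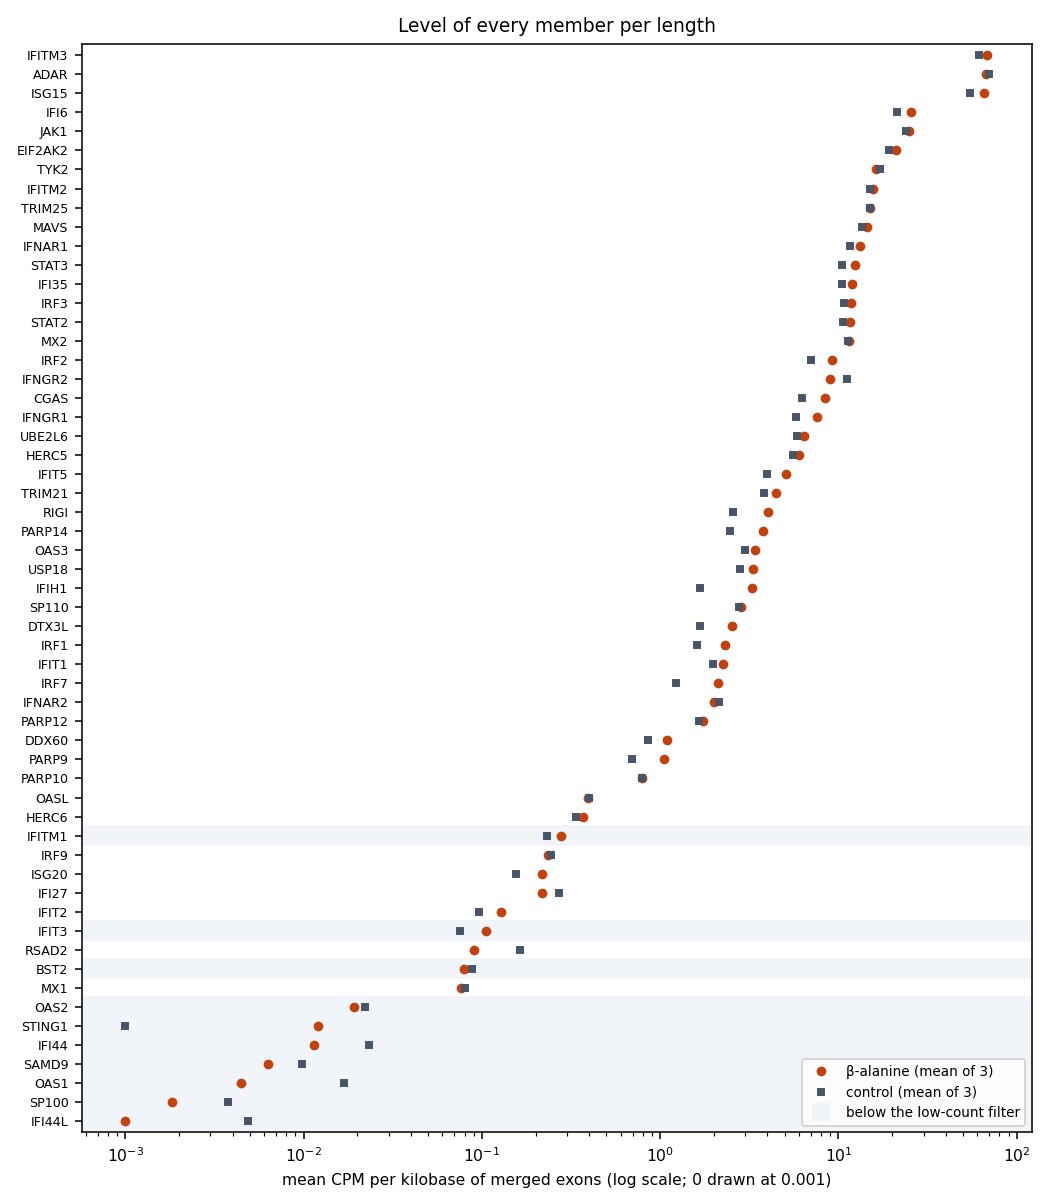
Mean CPM per kilobase of merged exons (log scale) of all 57 members in β-alanine (circles) and control (squares) libraries, ordered by the β-alanine level, with the 10 members below the low-count filter shaded. IFITM3, ADAR and ISG15 lead at 65.4 to 68.2 in β-alanine libraries, and the distance between the symbols is widest among the tested members for IFIH1.

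Other genes of the pathway, 67 in all, were read from the same fit. Of these, 60 had a row and 45 were tested, and 9 were called higher and 3 lower, with a median log2 fold change of 0.07. That is 20% higher and 6.67% lower, and 26.7% in either direction, close to the 27.9% of all genes tested. Among them, the kinase JAK2 rose by 0.45 ± 0.09 (SE; edgeR, adjusted p = 0.000838) and the receptor chain IL10RB by 0.73 ± 0.25 (edgeR, adjusted p = 0.0321). IL10RB was low, at 1.67 CPM after β-alanine and 1.04 CPM in controls. TBK1, the kinase that phosphorylates IRF3, rose by 0.34 ± 0.05 (edgeR, adjusted p = 1.91e-05), while its relative IKBKE fell by 0.89 ± 0.14 (edgeR, adjusted p = 5.5e-05) and the RIGI ligase RNF135 fell by 0.33 ± 0.07. TBK1 and IKBKE thus moved in opposite directions.

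Of 20 further interferon-stimulated genes tested, 4 rose and 1 fell, or 25% in all, against 27.9% of all genes tested. Among them, NMI, a STAT-binding protein, rose by 0.85 ± 0.16, HELZ2 by 0.28 ± 0.06 and SHISA5 by 0.13 ± 0.04, and LY6E fell by 0.22 ± 0.06. None of 7 negative regulators was called, among them SOCS1 (-0.27 ± 0.32) and SOCS3 (-0.13 ± 0.15). IFNG, IFNL2 and IFNL3 had no count in any library, which allows up to 0.0402 CPM over the β-alanine libraries and 0.0496 CPM over the controls. CXCL10, a chemokine induced by interferon gamma, had 2, 4 and 7 counts after β-alanine and 3, 3 and 4 in controls, and was not tested.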

How the data were processed

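The authors deposited a table of whole-number counts by gene symbol for 6 polyA RNA libraries. The submitters' processing notes name STAR 2.7.3a, Trimmomatic 0.39, featureCounts 2.0.1, bcl2fastq and DESeq2, and the build GRCh38. Annotation release, settings and strandedness: not given in the sources used here.

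Groups and replicate numbers came from the titles. Counts were filtered with filterByExpr, which left 17331 genes, scaled by TMM and tested with edgeR 4.0.16 (quasi-likelihood, robust shrinkage, no covariate, two-sided, Benjamini-Hochberg over all genes tested, threshold 0.05) in R 4.3.3. CPM uses TMM-scaled totals, and log2 fold changes set β-alanine over control. Each SE of a log2 fold change was derived from the test, as its absolute value divided by the square root of the quasi-likelihood F statistic. The fit was tested on simulated data. The members, lists and naming rules were chosen with earlier results of these data known. All called members were named, and per-library values are given for up to 3 members of each role with the smallest p. Positions and promoters came from RefSeq on GRCh38.p14, and exon lengths, overlaps and shared 50-base windows from GENCODE release 29. Promoters of 13 members (IFIT2, IFITM2, MX2, OAS2, OASL, USP18, PARP10, IRF2, IRF3, IRF7, IFNAR2, CGAS and STING1) were not analysed here. Alternatives were other scaling, filters and thresholds, DESeq2 1.42.0, limma-voom (limma 3.58.1), no robust shrinkage, a replicate block, thinning to the smallest library and leaving out each library. Figures were drawn with matplotlib 3.10.9. Some genes of the pathway and marker lists are not reported here by name.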

Additional observations from a re-analysis of the deposited data

How the results depend on the processing

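The 16 members called higher and 1 called lower stayed within 1.5 times of these counts under other scaling, filters, tests and thresholds, where 11 to 21 were higher and 1 was lower. Leaving out 1 library gave 11 to 26 higher and 1 to 2 lower, 13 to 28 in all, with the highest counts without β-alanine library 1. Over all genes, 4830 were called, 2845 at an adjusted p under 0.01, and 2974 to 6498 without 1 library. The members' median log2 fold change of 0.15 was 0.170 with library totals, 0.189 with a CPM of at least 1 in 3 libraries, 0.168 after thinning, and 0.14 to 0.20 without 1 library. Of the 17 called members, 12 kept their call in all 15 alternative fits. The others were IFNAR1, STAT2, IFITM3, DDX60 and IFI6. No called member changed sign in these fits. Deviations of same-numbered libraries of the groups correlated at r = 0.0783, -0.000441 and 0.129, and those of different-numbered libraries at -0.117 to 0.0143. The same-numbered values did not all lie above the others, so the numbers were not used as pairs. Whether the libraries were paired is not settled by these values. A replicate block gave 20 members higher and 1 lower, in a fit that called 29.8% of all genes. The power to detect a change in members near or below 1 CPM was not tested.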

Other observations

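In the chromosome 3 locus, PARP9, DTX3L and PARP14 had neighbours that were called in either direction or not called, read after the members' values were seen. On the PARP9 side, KPNA1 gave a log2 fold change of 0.11 ± 0.04 (SE) and was not called, WDR5B gave 0.03 ± 0.09 and was not called, and FAM162A rose by 0.18 ± 0.06 (edgeR's quasi-likelihood test, adjusted p = 0.0198). PARP15, between DTX3L and PARP14, had 1, 0 and 0 counts in β-alanine libraries and 0, 0 and 0 in controls. Beyond PARP14, HSPBAP1 gave 0.01 ± 0.11 and was not called, and SLC49A4 rose by 0.33 ± 0.08 (edgeR's quasi-likelihood test, adjusted p = 0.0032). Farther on, PDIA5 fell by 0.31 ± 0.07 (edgeR's quasi-likelihood test, adjusted p = 0.00255).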
